A study of Mus musculus with 12 samples.

Results

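The mitochondrial ribosomal protein genes were chosen by symbol. Every row of the count tables whose Ensembl ID maps to a protein-coding mouse gene named Mrpl or Mrps plus a digit was taken, which gave 78 of 48709 gene IDs. Of these, 49 are Mrpl genes, named for the large subunit, and 29 are Mrps genes, named for the small subunit. Mrpl53, a large subunit protein specific to mitochondria, was removed by the filter on low counts, which left 77 tested genes (48 Mrpl and 29 Mrps). Mrpl53 had at most 4 counts in a sample, and 78.5% of its 50-base words are also found in the overlapping gene model Gm42688, so its level cannot be read here.

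Read counts per gene came from RNA sequencing of cultured mouse embryonic fibroblasts of strain C57BL/6, grown in serum-containing DMEM medium. There were 4 groups of 3 samples: cells labelled WT in normoxia, cells labelled TAZKo in normoxia, and cells of each label after 24 hours of hypoxia in a workstation. TAZKo stands for a lack of tafazzin, the enzyme encoded by Taz that remodels cardiolipin, a lipid of the inner mitochondrial membrane, and the study asks how that lack changes the response to low oxygen. The labels call the WT cells isogenic, give no oxygen level, say neither how the tafazzin defect was made nor how many clones were used, and do not state whether the samples of a group came from separate cultures. P-values therefore measure the spread between these samples, which may be technical.

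Mitochondria carry their own ribosome, which translates the few membrane proteins encoded by mitochondrial DNA for the respiratory chain and the ATP synthase. Its RNAs come from mitochondrial DNA, whereas all of its proteins are encoded in the nucleus, made in the cytosol and imported. The large subunit forms the peptide bond and feeds the new chain through a tunnel to the inner membrane, and the small subunit binds the messenger RNA. Some of the proteins descend from the bacterial ribosome, and others were added in the mitochondrial lineage.

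Nuclear respiratory factor 1 (NRF1) and GA-binding protein (GABPA) are transcription factors known to act on many nuclear genes of mitochondrial function. Promoters in RefSeq (build GRCm38.p6, from 250 bases before to 50 bases after the start site) were found for 69 of the 78 genes. Both strands were searched for the palindromic consensus of NRF1, for CCGGAAG of GABPA and AAGATGG of YY1, and for CACGTG, the E-box, which contains the hypoxia response core ACGTG. The GABPA letters stood in 25 of the 69 promoters (36.2%), in 9.12% of all 27025 promoters and in 18.5% of the 9726 promoters of tested protein-coding genes. The NRF1 consensus stood in 13 (18.8%), against 4.78% of all promoters and 10.7% of those of tested coding genes. The YY1 letters stood in 13 (18.8%), against 6.48% and 7.46%. For the hypoxia response core the share was 21.7% of the members' promoters, against 19.7% of all promoters and 25.9% of those of tested coding genes. The E-box was found in 5 promoters (7.25%), against 7.24% and 10.2%. A match in letters is a description of the sequence and not a binding site. Because hypoxia lowered many of these genes together, stretches of 4 promoters are shown, chosen after the values were seen: Mrpl45, which rose in hypoxia, and Mrpl12, Mrpl34 and Mrps22, which fell in WT cells or in cells of both labels. Capitals mark matches to the NRF1 consensus in Mrpl45 (chr11:97315566-97315715, plus strand) and in Mrpl12 (chr11:120484463-120484612, plus strand). In Mrpl34 (chr8:71464776-71464925, plus strand) and in Mrps22 (chr9:98601680-98601829, minus strand) they mark the GABPA letters. All are written 5′ to 3′ along the gene.
Mrpl45: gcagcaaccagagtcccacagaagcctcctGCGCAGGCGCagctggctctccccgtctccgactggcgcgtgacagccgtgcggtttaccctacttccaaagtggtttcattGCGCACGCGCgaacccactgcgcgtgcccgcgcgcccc
Mrpl12: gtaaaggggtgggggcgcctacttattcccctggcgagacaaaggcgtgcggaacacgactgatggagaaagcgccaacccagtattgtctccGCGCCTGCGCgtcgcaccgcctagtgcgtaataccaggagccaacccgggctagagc
Mrpl34: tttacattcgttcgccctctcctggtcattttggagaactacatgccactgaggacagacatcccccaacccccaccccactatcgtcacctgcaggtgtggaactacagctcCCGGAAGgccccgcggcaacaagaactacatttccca
Mrps22: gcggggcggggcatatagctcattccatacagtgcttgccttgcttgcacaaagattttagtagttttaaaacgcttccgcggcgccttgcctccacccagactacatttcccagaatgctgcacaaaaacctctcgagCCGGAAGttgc
The Mrpl45 stretch holds 2 matches, which begin 120 and 38 bases before the start site. Each of the others holds 1, which begins 81 bases before it in Mrpl12 (on the opposite strand), 37 in Mrpl34 and 11 in Mrps22. Among the 36 genes with a promoter that fell in both genotypes, 4 (11.1%) held the NRF1 consensus and 13 (36.1%) the GABPA letters. Among the other 32 tested genes with a promoter, 9 (28.1%) held the NRF1 consensus and 11 (34.4%) the GABPA letters.

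Total counts per sample ran from 21039451 to 31204510, and the biological coefficient of variation was 8.62%. At these depths 3 counts were worth 0.0927 to 0.15 CPM, which is a count scaled to a fixed library total, a floor that covers counting error only. Taz, the gene whose loss the label names, was not reduced: it was higher in the libraries labelled TAZKo by 0.29 on the log2 scale in normoxia (adjusted p = 0.0139) and by 0.43 in hypoxia (adjusted p = 0.00112), so every genotype direction rests on the labels. Of 10 fibroblast markers, whose sum was 10000 to 13100 CPM, Vim and Fn1 were abundant in every sample, while Thy1 (2 to 8 counts) and Lum (0 to 2 counts) were at or near 0. Sample 1 of WT normoxia stood furthest apart for the ribosomal genes: it had the highest CPM of the 6 normoxia samples for 48 of the 77 genes. The members took 0.417% of its counts, against 0.349% to 0.377% in the other normoxia samples. It was also the lowest sample of its group for RNAs encoded in mitochondrial DNA: mt-Nd1 stood at 1410 CPM there, against 3040 and 3150 in the other WT normoxia samples, and mt-Rnr1 at 105 against 224 and 225. Sample 1 of the other groups leaned the same way. That of TAZKo normoxia had the highest CPM of the 6 normoxia samples for 16 genes. In TAZKo normoxia, WT hypoxia and TAZKo hypoxia, sample 1 had the highest member share of its group (0.377%, 0.307% and 0.298%, the last against 0.296% in sample 3). It also had the lowest mt-Rnr1 there (130, 339 and 300 CPM). Values without sample 1 of WT normoxia are given beside the results where they differ most. Those fits keep sample 1 of the other groups.

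Marker genes also moved with the groups, and not in 1 direction. Among the fibroblast markers Col1a1 was lower in the libraries labelled TAZKo (-1.3 in normoxia and -1.39 in hypoxia), S100a4 and Pdgfrb were higher (1.24 and 1.07 in normoxia), and hypoxia raised Vim (1.2 in WT, 0.97 in TAZKo) and lowered Pdgfrb (-1.03 and -1.18). Over the 4 groups in the order WT normoxia, TAZKo normoxia, WT hypoxia and TAZKo hypoxia, the 4 summed leukocyte markers ran from 4.49 to 5.57, 4.42 to 5.3, 11.7 to 13.8 and 7.99 to 9.91 CPM. The 4 muscle markers ran from 3.73 to 4.95, 9.01 to 10.1, 2.85 to 4.44 and 5.57 to 6.46 CPM, and the 4 neural markers from 33.2 to 40.1, 22.5 to 28, 44.4 to 61.4 and 35 to 37.2 CPM. The 4 endothelial markers ran from 2.72 to 3.85, 1.43 to 1.73, 3.05 to 3.9 and 1.17 to 1.6 CPM, and the 5 epithelial markers from 122 to 152, 97.9 to 105, 117 to 139 and 120 to 128 CPM. Of these markers, Adgre1 (leukocyte) and Myod1 (muscle) had 0 counts in every sample, Ptprc, Tie1 and Sox2 had 0 or 1, and Cdh5 had at most 2. Others were counted in every sample: Csf1r (23 to 162 counts) and Cd68 (66 to 218) of leukocytes, Kdr (21 to 97) of endothelium and Des (57 to 325) of muscle. Tubb3 (neural) had 614 to 1660 counts and Krt18 (epithelial) 2249 to 3678. Csf1r and Cd68 rose by 1.47 and 1.27 in WT hypoxia. The part of these markers in the results was not tested.

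Levels were compared between genes per kilobase of exon, as the mean of the 4 group means of CPM per kilobase. They spanned from 80.6 for Mrpl28 to 0.287 for Mrpl23. The median over genes, averaged over a group's samples, was higher for the Mrpl than for the Mrps genes in each group. In normoxia it was 19.9 against 13.5 in WT and 18.9 against 12.9 in TAZKo. In hypoxia it was 16.1 against 10.6 in WT and 15.6 against 10.2 in TAZKo. Mrpl28 (bL28m, a large subunit protein of bacterial descent) stood at 91.7 ± 13.5 CPM per kilobase in WT normoxia and 81.5 ± 2.33 in TAZKo normoxia (SD, n = 3). In hypoxia it stood at 74.9 ± 6.51 in WT and 74.2 ± 2.96 in TAZKo. Mrpl54 (mL54, specific to mitochondria) came next with a mean of 74, from 64.4 ± 9.84 in WT normoxia to 86.1 ± 2.26 in TAZKo hypoxia. In TAZKo hypoxia Mrpl54 was the higher of the pair, and in WT hypoxia Mrpl28 stood at 74.9 ± 6.51 and Mrpl54 at 72.2 ± 2.24. Mrpl14 (uL14m, at the interface of the subunits) followed at 55.0. Its neighbour Mrps21, the highest of the Mrps genes, stood at 52.8. The pair differed by less than their SDs in WT normoxia (56.5 ± 7.0 against 58.5 ± 4.24), and in TAZKo hypoxia they stood at 55.6 ± 2.34 and 47.6 ± 4.83. The lowest 3 were Mrps33 at 2.62, Mrpl48 at 1.99 and Mrpl23 at 0.287 CPM per kilobase. Mrpl23 (uL23m, a bacterial-type protein at the exit of the peptide tunnel) had as few as 18 counts in a sample. The order depends on the length used, and 8 of the 10 highest genes were also among the 10 highest when the longest transcript was used.

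**Figure D1:**
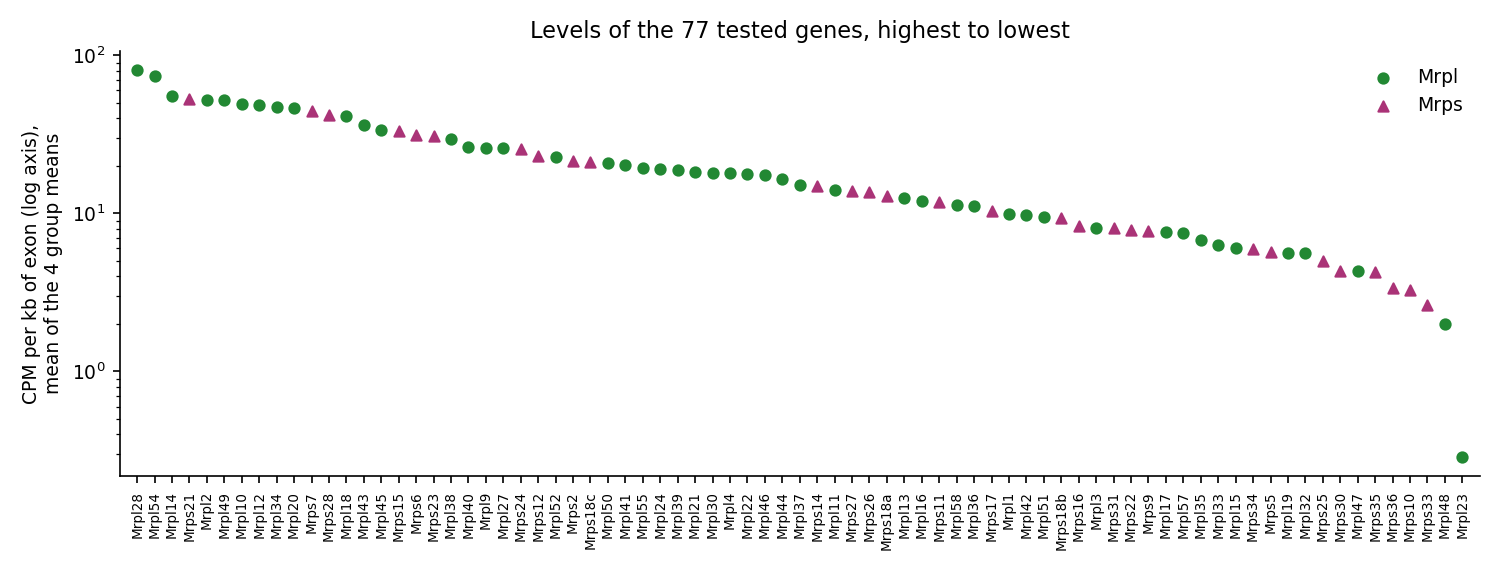
Mean level of each of the 77 tested genes in CPM per kilobase of exon (log axis, mean of the 4 group means), ordered from highest to lowest, with circles for Mrpl and triangles for Mrps genes. Mrpl28 is highest at 80.6 and Mrpl23 lowest at 0.287. Genes of both subunits occur near the top and near the bottom, and most of the highest are Mrpl genes.

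Hypoxia against normoxia asked how the cells of each label adapt to low oxygen. In WT cells hypoxia lowered most of the family: 51 of the 77 genes fell, 2 rose (Mrpl45 and Mrps6) and 24 did not pass the test. Over all 14408 tested genes, 51.0% were called in this comparison, 25.0% lower and 26.0% higher, while 66.2% of the members were called lower. The large subunit had 33 of 48 genes lower and 1 higher, with a median log2 difference of -0.299. The small subunit had 18 of 29 lower and 1 higher, with a median of -0.283. The median over all tested genes was 0.009. The changes were small, since the largest fall, that of Mrpl34, was to 0.613 of its normoxia level. Sample 1 of WT normoxia adds to the size: without it 46 genes fell and 4 rose, and the medians were -0.244 (large) and -0.213 (small).

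In TAZKo cells 41 genes fell, 4 rose (Mrpl45, Mrps6, Mrps18b and Mrpl54) and 32 did not pass. Over all tested genes 43.8% were called here, 21.6% lower and 22.2% higher, while 53.2% of the members were called lower. The large subunit had 27 of 48 genes lower and 2 higher (median -0.23), and the small subunit had 14 of 29 lower and 2 higher (median -0.232), beside a median over all genes of -0.009. Of the 77 genes, 72 had a log2 difference below 0, against 65 in WT. These are bulk libraries, so less RNA of a gene in each cell and fewer cells that express it cannot be told apart.

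Per sample, the median log2 level of the 48 Mrpl genes, relative to the mean of WT normoxia, was 0.112, -0.044 and -0.074 in WT normoxia samples 1 to 3. For TAZKo normoxia it was -0.041, -0.096 and -0.14. Hypoxia gave -0.231, -0.334 and -0.331 in WT, and -0.345, -0.355 and -0.355 in TAZKo. Every hypoxia sample lay below every normoxia sample, while WT and TAZKo overlapped in normoxia and lay just apart in hypoxia. Within same-numbered pairs TAZKo was below WT in 3 of 3 in normoxia, where the numbers pair the samples, and in 3 of 3 in hypoxia, where they do not. The 29 Mrps genes gave 0.102, -0.027 and -0.064 in WT normoxia and -0.005, -0.047 and -0.136 in TAZKo normoxia. Under hypoxia the WT values were -0.197, -0.247 and -0.334, and the TAZKo values were -0.274, -0.343 and -0.328. The small subunit was also separated by oxygen, and its WT and TAZKo samples overlapped in both conditions, with TAZKo below WT in 3 of 3 same-numbered pairs in normoxia and 2 of 3 in hypoxia. The difference between the subunits' medians within a sample ran from -0.087 to 0.01.

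**Figure D2:**
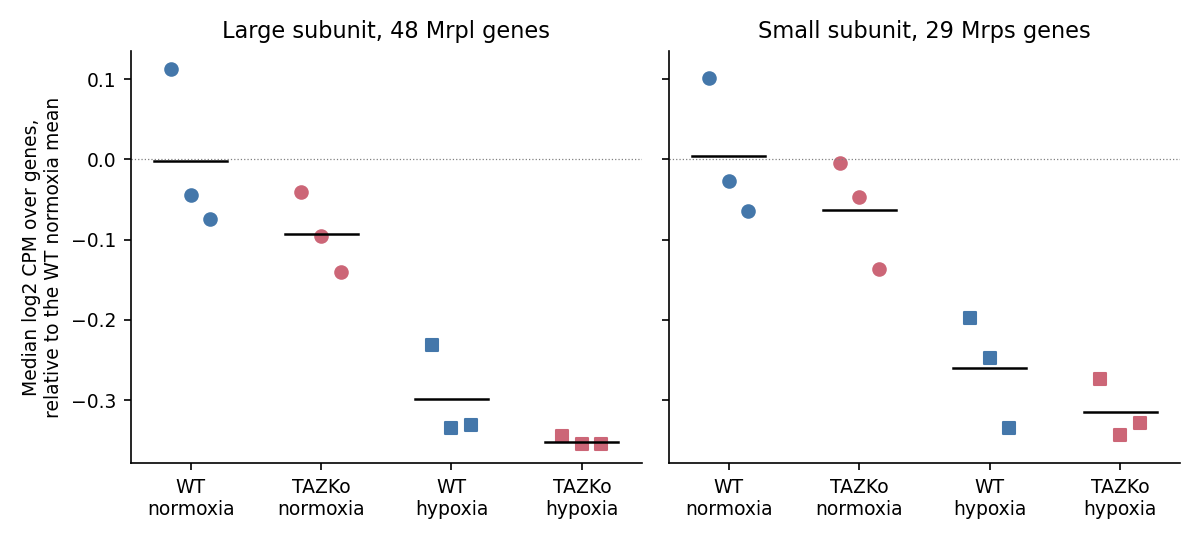
Median log2 CPM over the Mrpl genes (left) and the Mrps genes (right) in each of the 12 samples, relative to the WT normoxia mean of each gene; points are samples and lines are group means. All hypoxia samples (-0.355 to -0.197) lie below all normoxia samples (-0.14 to 0.112) in both panels.

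Lane was read from the names of the deposited tables and does not match the groups evenly: every sample 1 was on lane 4 and every sample 3 on lane 5, while sample 2 was on lane 4 for normoxia libraries and on lane 5 for hypoxia libraries. Within lane 4 the hypoxia medians in WT were -0.259 (large) and -0.273 (small), and within lane 5 they were -0.249 and -0.205. In TAZKo they were -0.257 and -0.238 within lane 4 and -0.196 and -0.189 within lane 5. The direction was the same in both lanes.

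Mrpl15 encodes uL15m, a large subunit protein of bacterial descent. It stood at 59.5, 59.7 and 55.6 CPM in WT normoxia and at 44.8, 43.4 and 44.1 CPM in WT hypoxia. In TAZKo it stood at 55.7, 54.6 and 56.3 CPM in normoxia and at 43.9, 44.6 and 48.5 CPM in hypoxia. All hypoxia samples were below all normoxia samples, and the genotypes overlapped in each condition. The log2 change was -0.40 in WT (SE 0.059, adjusted p = 7.12e-05) and -0.28 in TAZKo (SE 0.058, adjusted p = 0.00148). Every adjusted p in this text comes from edgeR's quasi-likelihood test over all 12 samples with Benjamini-Hochberg adjustment over all tested genes, unless another fit is named.

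Mrpl42 (mL42, specific to mitochondria) fell in both genotypes. It had 39.6, 40.3 and 40.1 CPM in WT normoxia against 24.5, 25 and 25.5 CPM in WT hypoxia. In TAZKo it had 51.1, 44.9 and 49.1 CPM in normoxia against 28.4, 30.5 and 30.5 CPM in hypoxia. The groups did not overlap, and each label's hypoxia samples were far below its normoxia samples. The log2 change was -0.68 in WT (SE 0.065, adjusted p = 1.44e-06) and -0.70 in TAZKo (SE 0.063, adjusted p = 1.42e-06).

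Mrps16 encodes bS16m, a bacterial-type protein of the small subunit whose loss in people causes a mitochondrial translation defect. It had 33.1, 27.8 and 26.5 CPM in WT normoxia and 18.7, 19.6 and 16.7 CPM in WT hypoxia. In TAZKo it had 30.3, 27.3 and 27.8 CPM in normoxia and 21.6, 19.5 and 19.2 CPM in hypoxia. Hypoxia samples were lower without overlap, whereas WT and TAZKo overlapped in normoxia. Its log2 change was -0.67 in WT (SE 0.097, adjusted p = 6.34e-05) and -0.50 in TAZKo (SE 0.095, adjusted p = 0.000768).

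Mrpl34 (bL34m, a small bacterial-type protein) had the largest fall in WT, and sample 1 of each WT group was its highest. It had 50.7, 36.3 and 36.5 CPM in WT normoxia and 29.7, 23.2 and 23.0 CPM in WT hypoxia, a log2 change of -0.71 (SE 0.13, adjusted p = 0.000482). Without sample 1 of WT normoxia the change was -0.53. In TAZKo it had 28.8, 26.4 and 26.9 CPM in normoxia and 22.1, 19.3 and 21.7 CPM in hypoxia, a log2 change of -0.38 (SE 0.13, adjusted p = 0.0309). In both genotypes the conditions did not overlap. Mrpl52 (mL52) changed by -0.66 in WT (adjusted p = 0.000735), by -0.46 there without sample 1 of WT normoxia, and -0.44 in TAZKo (adjusted p = 0.0124). Mrpl55 (bL31m, the counterpart of bacterial L31) changed by -0.63 (adjusted p = 0.000138) and -0.50 (adjusted p = 0.00102). The remaining named falls in TAZKo were those of Mrpl41 (mL41), at -0.52 (adjusted p = 9.73e-05), and Mrpl35 (bL35m), at -0.50 (adjusted p = 0.000248). In WT these genes changed by -0.51 and -0.38. Mrps22 (mS22), shown above by its promoter, changed by -0.36 in WT and -0.42 in TAZKo.

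A few genes went against the rest. Mrpl45 encodes mL45, which sits at the exit of the peptide tunnel and holds the mitochondrial ribosome to the inner membrane. It had 82.5, 75.5 and 73.1 CPM in WT normoxia and 119, 98.5 and 106 CPM in WT hypoxia. In TAZKo it had 71.3, 68.5 and 65.7 CPM in normoxia and 95.7, 93.5 and 92.7 CPM in hypoxia. Every hypoxia sample was above every normoxia sample, and Mrpl45 rose by 0.49 in WT (SE 0.073, adjusted p = 9.16e-05) and by 0.46 in TAZKo (SE 0.073, adjusted p = 0.000222).

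Mrps6 encodes bS6m, a bacterial-type protein of the small subunit. It had 38.1, 36.9 and 33.6 CPM in WT normoxia and 57.6, 45.8 and 48.0 CPM in WT hypoxia. In TAZKo it had 49.6, 44.0 and 40.3 CPM in normoxia and 58.5, 60.5 and 59.8 CPM in hypoxia. Within each label the hypoxia samples were higher without overlap. It rose by 0.48 in WT (SE 0.094, adjusted p = 0.000797) and by 0.42 in TAZKo (SE 0.093, adjusted p = 0.00236). Exons of Mrps6 overlap those of Slc5a3, a transporter gene on the same strand, by 159 bases, and those of the gene model Gm49711 by 305 bases, and 8.72% of its 50-base words are shared with other genes. Reads of these stretches cannot be assigned to one gene from the counts.

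The rises of Mrps18b and Mrpl54 in TAZKo were weak. Mrps18b rose by 0.26 (SE 0.09, adjusted p = 0.0326) and Mrpl54 by 0.23 (SE 0.085, adjusted p = 0.0398). In WT their changes were 0.13 (adjusted p = 0.266) and 0.16 (adjusted p = 0.128). For Mrps18b 63.7% of the 50-base words also occur elsewhere, and its exons overlap those of the antisense gene Gm16279 by 638 bases. Under the 20 alternatives tried, the Mrps18b call was lost in 12 and the Mrpl54 call in 14. Each was lost with library size alone as the scaling, where Mrps18b stood at 0.16 and Mrpl54 at 0.14. The Mrpl54 call was lost without any 1 sample of TAZKo or of WT hypoxia, or without sample 2 of WT normoxia, with adjusted p from 0.0705 to 0.172. The Mrps18b call was lost without sample 2 or 3 of any group and without sample 1 of TAZKo hypoxia, with adjusted p from 0.0541 to 0.191.

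**Figure D3:**
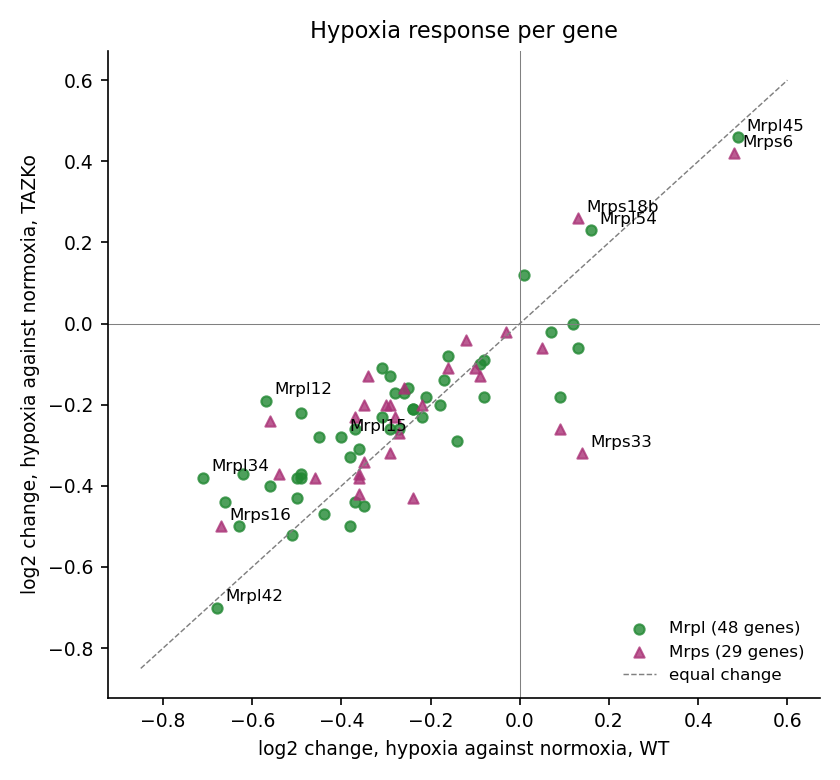
Fitted log2 change in hypoxia against normoxia of the 77 tested genes, in WT (horizontal) and in TAZKo (vertical); circles are Mrpl genes, triangles are Mrps genes and the dashed line marks equal change. Most points lie in the lower left quadrant, and Mrpl45 and Mrps6 lie apart at the upper right, at 0.49 and 0.46 and at 0.48 and 0.42.

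The calls in the 2 genotypes overlapped. Of the 53 genes called in WT and the 45 called in TAZKo, 42 were called in both in the same direction (79.2% of the former and 93.3% of the latter), 40 lower and 2 higher, and 0 were called in opposite directions. Over all tested genes the shared calls were 70% of those in WT and 81.6% of those in TAZKo. The 2 comparisons use different samples. Across the 77 genes, which are not independent replicates, the log2 changes in WT and TAZKo correlated at a Pearson r of 0.823, against 0.859 across all tested genes. Without sample 1 of WT normoxia calls changed in both genotypes. Among others, Mrpl36 lost its call in WT (-0.16, adjusted p = 0.115). In the same fit Mrpl54 (0.29, adjusted p = 0.000394) and Mrpl49 (0.15, adjusted p = 0.0228) gained one in WT. Mrpl12 (-0.19, adjusted p = 0.00774) and Mrps12 (-0.24, adjusted p = 0.0153) gained one in TAZKo there. With all samples, the 11 genes called in WT only were Mrpl2, Mrpl12, Mrpl28, Mrpl36, Mrpl38, Mrpl44, Mrpl51, Mrps12, Mrps21, Mrps28 and Mrps35, and the 3 called in TAZKo only were Mrpl47, Mrpl54 and Mrps18b. A call in one genotype alone does not show a difference between the genotypes, which is tested by the interaction.

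For that interaction, TAZKo change minus WT change, 0 of the 77 genes passed, against 2.43% of all tested genes. At an unadjusted p under 0.05 there were 5 of 77 (6.49%, against 15.8% of all tested genes), and DESeq2 also called 0, against 3.98% of all genes. The median interaction was 0.051 for the large and 0.017 for the small subunit, against -0.016 over all genes. The 95% intervals had a median half-width of 0.24 on the log2 scale, and the lowest and highest bounds of any member were -0.84 (Mrps33) and 0.72 (Mrpl34). Without sample 1 of WT normoxia the medians were -0.021 and -0.04.

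The lowest interaction p belonged to Mrpl12, which encodes bL12m, the stalk protein that recruits translation factors to the large subunit. It had 109, 84.9 and 86.3 CPM in WT normoxia and 66, 62.6 and 59.2 CPM in WT hypoxia. The TAZKo samples had 77.1, 75.8 and 70.4 CPM in normoxia and 65.2, 64.4 and 66.3 CPM in hypoxia. WT normoxia was the high group, TAZKo normoxia lay below it without overlap, and the hypoxia groups overlapped. Mrpl12 changed by -0.57 in WT (adjusted p = 9.43e-05) and by -0.19 in TAZKo (adjusted p = 0.0951). The interaction was 0.39 (SE 0.12, unadjusted p = 0.00745, adjusted p = 0.133). Without sample 1 of WT normoxia, its highest, Mrpl12 changed by -0.45 in WT and the interaction was 0.26 (edgeR adjusted p = 0.0891). In the fit blocked on sample number (the replicate block) it was 0.38 and passed the threshold (edgeR adjusted p = 0.0481), and without the filter on low counts it was 0.44 (adjusted p = 0.0152). The other 4 genes at an unadjusted p under 0.05 were Mrps33 (-0.45), Mrps18c (-0.35), Mrpl51 (0.27) and Mrps2 (0.16). With the replicate block, Mrps23, Mrps34 and Mrpl46 also passed in the WT hypoxia comparison (adjusted p from 0.00977 to 0.0303).

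**Figure D4:**
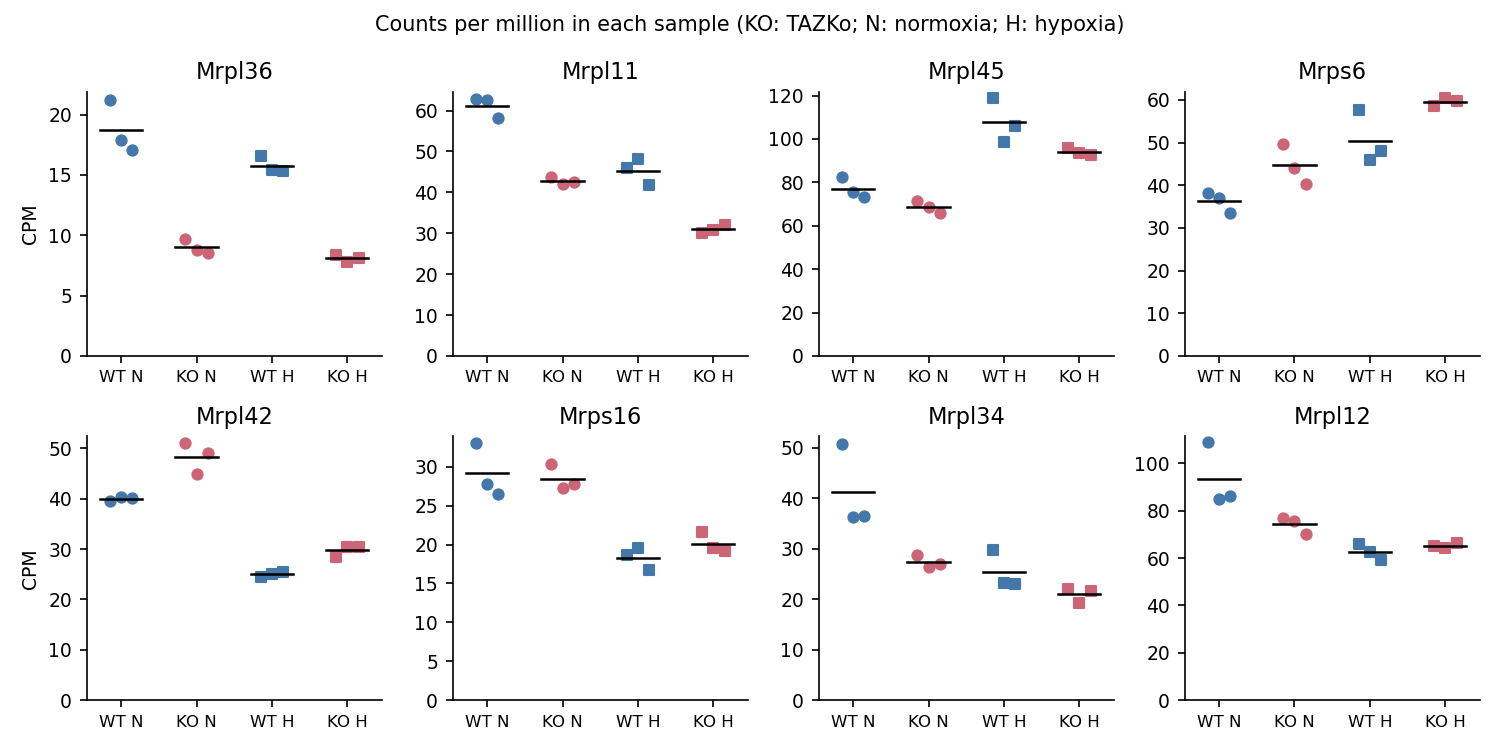
CPM of 8 genes in each of the 12 samples, with a line at each group mean (N is normoxia, H is hypoxia and KO is TAZKo). Mrpl36 and Mrpl11 separate the genotypes, Mrpl45 and Mrps6 rise in hypoxia, and Mrpl42, Mrps16, Mrpl34 and Mrpl12 are lower in hypoxia.

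The proteins were also grouped by their uniform names and by known place. An m at the front of a uniform name marks a position with no counterpart in the bacterial ribosome, and u or b marks one with a bacterial counterpart. Of 46 genes for proteins named with u or b, 34 fell and 1 rose in WT hypoxia (median -0.297), and 28 fell and 1 rose in TAZKo hypoxia (median -0.262). Of 30 tested genes for proteins named with m, 17 fell and 1 rose in WT (median -0.267), and 13 fell and 3 rose in TAZKo (median -0.211). No test was made of the difference between these groups. Both groups thus held falls and rises in each genotype. Symbols and places disagree for a few genes. Mrps30 (mL65) and Mrps18a (mL66) are known to sit in the large subunit, and Mrps36 is now known as a part of the 2-oxoglutarate dehydrogenase complex. Counted by place, 34 of 50 large subunit genes and 17 of 26 small subunit genes fell in WT hypoxia, and both medians were -0.29. In TAZKo hypoxia 28 of 50 and 13 of 26 fell.

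Mrps18a (mL66), Mrps18b (mS40) and Mrps18c (bS18m) are paralogs related to the bacterial protein S18, and by their uniform names Mrps18a and Mrps18b are counted above with the mitochondrial positions. Mrps18a had 61.9, 48.5 and 50.1 CPM in WT normoxia and 45.0, 44.8 and 42.2 CPM in WT hypoxia, and its log2 change was -0.28 in WT (adjusted p = 0.016) and -0.23 in TAZKo (adjusted p = 0.0454). Mrps18c had 17.3, 24.9 and 23.0 CPM in WT normoxia and 25.4, 22.8 and 21.2 CPM in WT hypoxia, which overlap, and its changes were 0.09 in WT (adjusted p = 0.55) and -0.26 in TAZKo (adjusted p = 0.0749). With the rise of Mrps18b in TAZKo, the 3 paralogs thus gave 1 fall, 1 rise and 1 gene that did not pass in those cells. Mrps30 had 26.8, 28.3 and 30.4 CPM in WT normoxia and 31.7, 29.9 and 27.1 CPM in WT hypoxia, which overlap, a change of 0.05 (adjusted p = 0.602), and changed by -0.06 in TAZKo (adjusted p = 0.522). Mrps36 was low, with 6.41, 3.99 and 4.6 CPM in WT normoxia and 4.35, 5.38 and 4.26 CPM in WT hypoxia, and its changes were -0.10 in WT (adjusted p = 0.661) and -0.11 in TAZKo (adjusted p = 0.676).

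TAZKo against WT in normoxia asked what differed before any hypoxia. It shares the WT normoxia samples with the WT hypoxia comparison above. Few of the genes differed: 14 were lower in the libraries labelled TAZKo, 3 were higher and 60 did not pass. The 22.1% of members called lay below the 30.4% of all tested genes, of which 14.9% were lower and 15.6% higher. The large subunit had 10 lower and 2 higher (median -0.094), and the small subunit 4 lower and 1 higher (median -0.09). Over all tested genes the median was 0.01. Without sample 1 of WT normoxia 10 genes were lower and 7 higher, and the medians were -0.038 and -0.011. With only the 6 samples compared in the fit, 8 genes were called, 7 lower and 1 higher. With the replicate block Mrpl10 (uL10m, which carries the stalk) and Mrpl45 also passed as lower (adjusted p = 0.0417 and 0.0378).

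In hypoxia 10 genes were lower in the libraries labelled TAZKo, 5 were higher and 62 did not pass. Over all tested genes 32.8% were called, 16.9% lower and 15.8% higher, and the members' 19.5% lay below that. The large subunit had 7 lower and 3 higher (median -0.013) and the small subunit 3 lower and 2 higher (median -0.052), beside -0.008 over all genes. The conditions shared 8 genes called lower and 2 called higher (Mrpl24 and Mrpl42), which is 58.8% of the normoxia calls and 66.7% of the hypoxia calls, and 0 were called in opposite directions. Over all tested genes these shares were 64.2% and 59.6%. For the Mrpl genes 9 of 12 normoxia calls recurred in hypoxia, and for the Mrps genes 1 of 5 did (Mrps14, lower by 0.21 and 0.25 on the log2 scale). The recurring Mrpl calls include the 5 members on chromosome 19 and Mrpl42 on chromosome 10. Other genes of these chromosomes were shifted the same way, as given below, and no Mrps gene lies on them.

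Mrpl36 had the largest difference. It encodes bL36m, a small bacterial-type protein of the large subunit, and lies on chromosome 13 from 73328513 to 73332178 (GRCm38). It had 21.2, 17.9 and 17.1 CPM in WT normoxia against 9.72, 8.8 and 8.56 CPM in TAZKo normoxia. In hypoxia it had 16.6, 15.4 and 15.3 CPM in WT against 8.36, 7.82 and 8.12 CPM in TAZKo. The genotypes were far apart in both conditions, and the lowest WT sample (15.3 CPM) lay well above the highest TAZKo sample (9.72 CPM). The log2 difference was -1.06 in normoxia (SE 0.093, adjusted p = 1.85e-06), 0.481 of the WT level, and -0.96 in hypoxia (SE 0.096, adjusted p = 5.81e-06), 0.513 of the WT level. None of its 50-base words is shared with another gene, its exons overlap those of Ndufs6 on the other strand by 30 bases, and the median difference of the other genes on its chromosome was 0.03 in normoxia. Over the alternatives its normoxia difference ran from -1.16 to -0.96.

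Mrpl11 encodes uL11m, which lies at the base of the stalk where translation factors bind. It had 62.9, 62.6 and 58.2 CPM in WT normoxia against 43.8, 42.0 and 42.6 CPM in TAZKo normoxia. In hypoxia it had 45.9, 48.1 and 41.7 CPM in WT against 30.1, 30.9 and 31.9 CPM in TAZKo. WT was higher without overlap in each condition, and the log2 difference was -0.52 in normoxia (SE 0.064, adjusted p = 4.32e-05) and -0.55 in hypoxia (SE 0.066, adjusted p = 3.21e-05). Mrpl43 (mL43) had 81.3, 63.7 and 59.0 CPM in WT normoxia against 49.7, 45.7 and 43.6 CPM in TAZKo normoxia, a difference of -0.55 (SE 0.11, adjusted p = 0.00142) and of -0.41 without sample 1 of WT normoxia, and the difference was -0.48 in hypoxia (SE 0.11, adjusted p = 0.00395). Its exons overlap those of Twnk, the mitochondrial DNA helicase, on the other strand by 507 bases, and Twnk was itself lower by 0.21 and 0.33 on the log2 scale. Whether strand was used in counting is not given in the sources used here, so reads of that stretch could belong to either gene. Mrpl49 (mL49) was lower by 0.31 in normoxia (adjusted p = 0.00263) and by 0.40 in hypoxia (adjusted p = 0.00039).

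Mrpl34 was lower in TAZKo normoxia by 0.59 on the log2 scale (SE 0.13, adjusted p = 0.00345) and by 0.41 without sample 1 of WT normoxia, and in hypoxia the difference was -0.26 (adjusted p = 0.152). Mrps12 encodes uS12m, a protein of the decoding centre. It had 38.8, 27.3 and 26.7 CPM in WT normoxia against 25.1, 23.0 and 23.1 CPM in TAZKo normoxia, with sample 1 of WT far above the rest. Its difference was -0.38 (SE 0.13, adjusted p = 0.0347), but -0.19 without that sample (adjusted p = 0.0985), and the call was also lost without sample 2 or 3 of TAZKo normoxia (adjusted p = 0.0691 and 0.0754) and with only the samples compared (adjusted p = 0.0993). In hypoxia Mrps33 (mS33) was lower by 0.39 (SE 0.13, adjusted p = 0.034), with 5.15, 5.07 and 4.26 CPM in WT against 3.6, 3.18 and 4.22 CPM in TAZKo. The groups nearly touched, 21.0% of its words are shared with other genes, mainly the pseudogene Gm5776, and the call was lost in 7 of 20 alternatives. These were the fits without sample 1 or 2 of either hypoxia group (adjusted p from 0.08 to 0.137), without the filter on low counts (0.0904), on only the samples compared (0.0662) and with DESeq2 (0.0616).

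The genes that were higher in the libraries labelled TAZKo differed little. Mrpl42 was higher by 0.27 in normoxia (SE 0.063, adjusted p = 0.00443) and by 0.25 in hypoxia (SE 0.065, adjusted p = 0.00834), without overlap in either condition. Mrps2 (uS2m) had 46.0, 49.1 and 48.0 CPM in WT hypoxia against 57.9, 57.6 and 57.3 CPM in TAZKo hypoxia, a difference of 0.27 (SE 0.051, adjusted p = 0.0012). Mrps15 (uS15m, which binds the small subunit RNA) had 45.5, 46.8 and 46.5 CPM against 56.3, 55.2 and 55.7 CPM, a difference of 0.27 (SE 0.066, adjusted p = 0.00692). In normoxia these 2 genes differed by 0.11 (adjusted p = 0.129) and 0.12 (adjusted p = 0.203).

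Several of the higher calls were lost when a single sample was left out. Mrps6 was higher by 0.30 in normoxia (SE 0.094, adjusted p = 0.0266), but lost the call in 9 of 20 alternatives. These were the fit on only the samples compared, and fits without sample 2 or 3 of WT normoxia, sample 1 or 2 of TAZKo normoxia, sample 3 of WT hypoxia or any 1 sample of TAZKo hypoxia, with adjusted p from 0.0515 to 0.167. Mrpl24 (uL24m, near the tunnel exit) was higher by 0.18 in normoxia (SE 0.063, adjusted p = 0.0463) and by 0.20 in hypoxia (SE 0.064, adjusted p = 0.0248), and lost these calls in 17 and in 5 of 20 alternatives. In normoxia the Mrpl24 call was lost without any 1 sample other than sample 1 of WT normoxia, and in hypoxia it was lost without sample 2 or 3 of WT hypoxia or sample 1 or 3 of TAZKo hypoxia. It shares 38.0% of its words with other genes and overlaps Rrnad1 on the other strand. Mrpl54 was higher by 0.25 in hypoxia (SE 0.085, adjusted p = 0.0348), and lost the call without any 1 sample of TAZKo or of WT hypoxia (adjusted p from 0.0502 to 0.116).

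Chromosome position went with the genotype calls. All 5 genes on chromosome 19 (Mrpl11, Mrpl16, Mrpl21, Mrpl43 and Mrpl49) were lower in the libraries labelled TAZKo in both conditions. The differences in normoxia were -0.52, -0.38, -0.38, -0.55 and -0.31, in that order, and in hypoxia -0.55, -0.21, -0.33, -0.48 and -0.40. Of the other tested genes on chromosome 19, 46.4% were called lower in normoxia and 48.0% in hypoxia, and their median differences were -0.26 and -0.28. On chromosome 10, Mrpl42 and Mrpl54 were at 0.27 and 0.19 in normoxia and at 0.25 and 0.25 in hypoxia, beside medians of 0.32 and 0.29 for the other genes of that chromosome, of which 55.9% and 47.0% were called higher. The other genes of chromosomes 8 and 4 were shifted less. On chromosome 8 their medians were -0.16 and -0.14, with 31.5% and 29.6% called lower, and of its 2 members Mrpl34 was lower in normoxia and Mrps31 in hypoxia (-0.28, adjusted p = 0.00937). On chromosome 4 their medians were 0.13 and 0.13, with 26.3% and 28.4% called higher, and of its 4 members Mrps15 was higher in hypoxia. The genotype label and a shift of a whole chromosome cannot be told apart for the members on these chromosomes. Off chromosomes 10 and 19, which were singled out after the values were seen, 11 of 70 genes were called in normoxia (15.7%, against 28.2% of the other tested genes off them), and 8 of 70 in hypoxia (11.4%, against 31.1%).

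**Figure D5:**
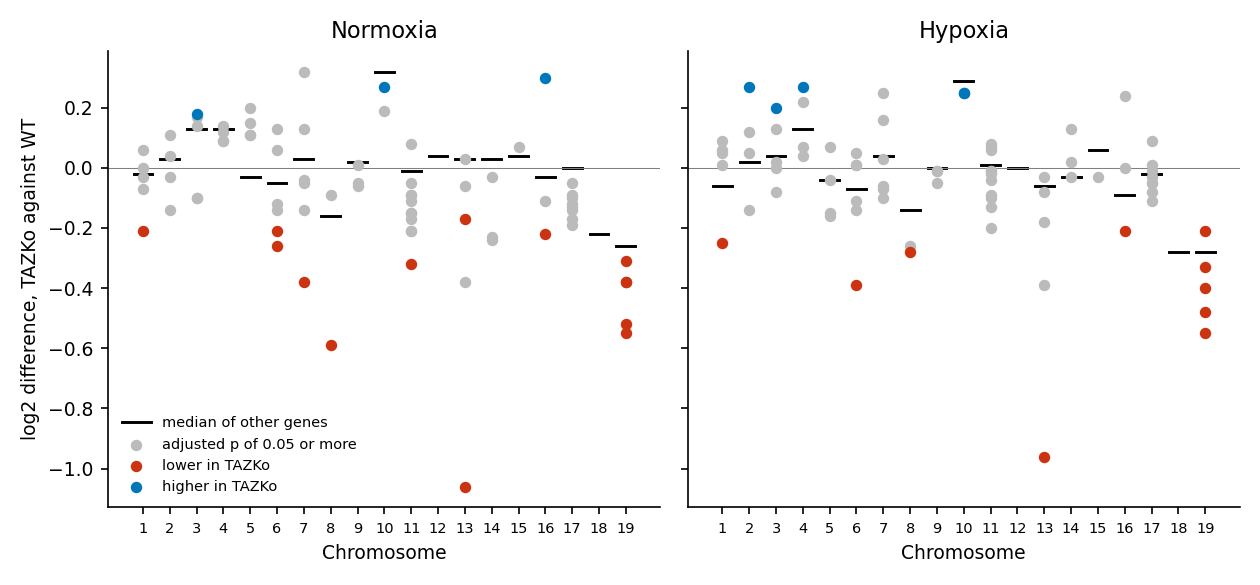
Log2 difference, TAZKo against WT, of each tested gene by chromosome, in normoxia (left) and hypoxia (right); red and blue points passed an adjusted p of 0.05 and black bars are medians of all other tested genes of the chromosome. The 5 genes of chromosome 19 lie below 0 in both panels, where the other genes' medians are -0.26 and -0.28, and Mrpl36 on chromosome 13 is lowest at -1.06 and -0.96.

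RNA of the genes named for each subunit was compared by the ratio of summed Mrpl CPM to summed Mrps CPM. Genes with many counts weigh most in such sums, and the amounts of the subunits themselves were not measured. The sums go by symbol, so Mrps18a, Mrps30 and Mrps36 count with the Mrps genes. The ratio was 2.17, 2.14 and 2.15 in WT normoxia and 2.06, 2.04 and 2.08 in TAZKo normoxia. After hypoxia it was 2.15, 2.11 and 2.13 in WT and 2.04, 2.03 and 2.09 in TAZKo. The ratio was lower in the libraries labelled TAZKo without overlap in each condition, and the conditions overlapped within each label. Since the members were chosen with results known, no p is given for this score. The 7 genes on chromosomes 10 and 19 are all Mrpl genes. Without them the ratio was 1.78 to 1.8 in WT normoxia and 1.73 to 1.76 in TAZKo normoxia, and 1.74 to 1.77 and 1.71 to 1.76 in hypoxia, so the genotypes stayed apart in normoxia and overlapped in hypoxia.

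Further proteins of the mitochondrial ribosome have other symbols. Of Dap3, Ptcd3, Aurkaip1, Chchd1 and Gadd45gip1, 3 fell in WT hypoxia: Aurkaip1 (-0.31, adjusted p = 0.0191), Chchd1 (-0.19, adjusted p = 0.025) and Gadd45gip1 (-0.32, adjusted p = 0.0143). Of all tested genes 25.0% were called lower there. Leaving out sample 1 of WT normoxia, the Aurkaip1 call was lost, Ptcd3 fell and Dap3 rose. In TAZKo hypoxia Chchd1 fell (-0.36, adjusted p = 0.00061), where 21.6% of all tested genes were called lower. Dap3, the GTP-binding protein of the small subunit, stood at 0.15 (adjusted p = 0.102) and 0.12 (adjusted p = 0.195). By genotype Gadd45gip1 was lower in normoxia (-0.30, adjusted p = 0.0362, lost without sample 1 of WT normoxia) and Chchd1 in hypoxia (-0.23, adjusted p = 0.0153). Of all tested genes 14.9% were called lower by genotype in normoxia and 16.9% in hypoxia.

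Assembly factors build the subunits around the ribosomal RNAs. Of 25 tested, 9 fell and 1 rose in WT hypoxia (median -0.149), where 25.0% of all tested genes were called lower and 26.0% higher. In TAZKo hypoxia 11 fell and 1 rose (median -0.185), where these shares were 21.6% and 22.2%. The largest falls in WT were those of Mtg1 (-0.98, SE 0.1, adjusted p = 3.11e-06), a GTPase of large subunit assembly, and Rcc1l (-0.85, adjusted p = 2.65e-06). In TAZKo they were those of Rpusd3 (-0.87, adjusted p = 0.001), a pseudouridine synthase family member, and Mtg1 (-0.82, adjusted p = 1.96e-05). Nsun4, a methyltransferase of the small subunit RNA, rose in WT (0.30, adjusted p = 0.00238), and Noa1 rose in TAZKo (0.32, adjusted p = 0.0071). By genotype 3 were higher and 2 lower in normoxia, led by Ybey (0.49), Fastkd2 (0.41), Rbfa (-0.28) and Dhx30 (-0.17), of which the 2 lower calls were lost without sample 1 of WT normoxia, and 2 were higher and 2 lower in hypoxia, which were Ybey (0.36), Mrm1 (0.34), Rpusd3 (-0.54) and Nsun4 (-0.26). Gtpbp10 had 0 to 7 counts and was not tested. Over all tested genes 30.4% were called by genotype in normoxia and 32.8% in hypoxia. No gene list here or below was tested against such a share.

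Translation factors load, elongate, release and insert the chain. Of 13 tested, 8 fell and 0 rose in WT hypoxia (median -0.362), where 25.0% of all tested genes were called lower. The largest changes of the list were in Tsfm (-0.57, adjusted p = 0.000334), the exchange factor of elongation factor Tu, and Oxa1l (-0.55, adjusted p = 3.63e-05), the insertase that receives the chain. In TAZKo hypoxia 7 fell and 0 rose (median -0.246), where 21.6% of all tested genes were called lower. The largest changes of the list were in the recycling factor Gfm2 (-0.58, adjusted p = 5.15e-06) and the translational activator Taco1 (-0.52). Guf1, a GTPase related to the bacterial elongation factor LepA, was at 50.8 CPM in WT normoxia and 20.6 CPM in TAZKo normoxia, and at 53.4 CPM and 18.1 CPM in hypoxia. It was lower in the libraries labelled TAZKo by 1.31 on the log2 scale in normoxia (SE 0.16, adjusted p = 3.5e-05) and by 1.56 in hypoxia (SE 0.16, adjusted p = 8.25e-06). By genotype the other calls were Mtrf1l (0.48) and Mtif2 (0.29, lost without sample 1 of WT normoxia) in normoxia, and Gfm2 (-0.17) and Oxa1l (0.22) in hypoxia.

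Genes that copy and transcribe mitochondrial DNA went both ways. Of 11 tested, 1 rose and 4 fell in WT hypoxia (51.0% of all tested genes were called there). In TAZKo hypoxia 2 rose and 4 fell (43.8% of all tested genes were called). Twnk rose in both (0.51, adjusted p = 6.84e-06, and 0.39, adjusted p = 0.000101), and Polg, the polymerase, rose by 0.14 in TAZKo (adjusted p = 0.0498). The largest falls in WT were those of Polrmt (-0.48, adjusted p = 0.000473), the RNA polymerase, and Tefm (-0.36, adjusted p = 0.00887). In TAZKo they were those of Tefm (-0.42) and Slirp (-0.31). By genotype 1 was higher and 1 lower in normoxia, and 3 were higher and 2 lower in hypoxia. Tfam, which packages the DNA, was higher in normoxia and hypoxia (0.38 and 0.25), Polrmt was higher in hypoxia (0.27), and Twnk was lower in both, with Ssbp1 (-0.26) in hypoxia.

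Among 9 regulators of nuclear genes for mitochondria, 3 rose and 2 fell in WT hypoxia (51.0% of all tested genes were called there). In TAZKo hypoxia 3 rose and 1 fell (43.8% of all tested genes were called). Ppargc1b, a coactivator of NRF1 and of nuclear receptors, went from 16.1 to 5.18 CPM in WT (-1.64, SE 0.13, adjusted p = 2.7e-07) and from 11.8 to 5.15 CPM in TAZKo (-1.18, SE 0.13, adjusted p = 9.04e-06). Myc rose from 57.5 to 178 CPM in WT (1.63, adjusted p = 7.61e-08) and from 70.3 to 141 CPM in TAZKo (1.0, adjusted p = 9.95e-06). Ppargc1a was low, at 1.1 CPM in WT normoxia, and rose in WT by 1.34 (adjusted p = 0.000129). Yy1 rose in WT (0.41, adjusted p = 0.00518) and in TAZKo (0.37, adjusted p = 0.0116), and Esrra fell in WT (-0.24, adjusted p = 0.0152). The transcripts of Nrf1 and Gabpa stood at 0.02 and 0.27 in WT (adjusted p = 0.834 and 0.102), and in TAZKo Nrf1 rose by 0.15 (adjusted p = 0.0454). By genotype Ppargc1a was higher in the libraries labelled TAZKo (1.64 and 0.67), Ppargc1b (-0.45) and Pprc1 (-0.42) were lower in normoxia, and Myc (-0.34) and Pprc1 (-0.23) were lower in hypoxia.

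The mitochondrial ribosome's own products were covered in part. Of 13 mitochondrially encoded protein genes, 7 were tested. The tables list mt-Nd4l, mt-Co2, mt-Co3 and mt-Atp6 at 0 in every sample, mt-Atp8 at 0 or 1 count and mt-Nd3 at 2 to 7 counts, although these transcripts belong to the respiratory chain and ATP synthase of every cell, so such a 0 is not a level. In WT hypoxia 0 of the 7 passed (0 also at an unadjusted p under 0.05), and the median was -0.061. Of all tested genes 51.0% were called in this comparison, 25.0% lower. The count of 0 of the 7 depends on sample 1 of WT normoxia, the lowest of its group for all 7. Without it 5 fell (mt-Nd1, mt-Nd4, mt-Nd5, mt-Nd6 and mt-Cytb) and the median was -0.319. Sample 1 of WT hypoxia, its same-numbered partner, was also the lowest of its group for all 7 but mt-Cytb, and it stayed in that fit. For mt-Nd2 it stood at 972 CPM, against 1390 and 1350 in the other WT hypoxia samples. Neither count is therefore taken as the corrected one. In TAZKo hypoxia mt-Cytb (-0.52, adjusted p = 0.00816) and mt-Nd4 (-0.50, adjusted p = 0.00875) fell, and the median was -0.422. Of all tested genes 43.8% were called there, 21.6% lower. The TAZKo hypoxia comparison holds no WT normoxia sample. Without sample 1 of WT normoxia the median was nearly unchanged at -0.424, but 5 of the 7 passed. The sample enters that comparison only through the shared scaling and spread. By genotype mt-Cytb was higher in normoxia (0.75, adjusted p = 0.00113, and 0.54 without that sample). The ribosomal RNAs of mitochondria were added after the values were seen. The small subunit RNA mt-Rnr1 rose in WT and TAZKo hypoxia (1.09 and 1.02, adjusted p = 0.0018 and 0.00357), and the large subunit RNA mt-Rnr2 rose in WT (0.93, adjusted p = 0.00876) and stood at 0.04 in TAZKo (adjusted p = 0.906). The WT changes of mt-Rnr1 and mt-Rnr2 were 0.81 and 0.64 without sample 1 of WT normoxia, and both passed the test. In WT normoxia mt-Rnr1 stood at 185 CPM, against 2530 CPM for mt-Nd1. These values count only the reads that the libraries captured, and the amount of ribosomal RNA in the cells was not measured.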

How the data were processed

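RNA was measured in 12 samples (4 groups of 3, grouped by the labels). Libraries were made with the TruSeq RNA v2 kit, per the labels' protocols. The deposited tables hold raw read counts per Ensembl gene, made by the authors on genome build mm10, per the submitters' processing notes. The aligner, the counter and the use of strand are not given in the sources used here. Of 48709 gene IDs, 48349 matched GENCODE M21, which gave symbols, positions and exon lengths.

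Genes were kept with edgeR's filterByExpr (14408 genes), scaled by TMM, and tested with edgeR 4.0.16 (quasi-likelihood, R 4.3.3) in 1 fit over all samples, with a coefficient per group. P-values were adjusted by Benjamini-Hochberg over all tested genes, with a threshold of 0.05. CPM are counts divided by the TMM-scaled library size and set to a fixed total. Counts were simulated for 14408 genes from their means over all 12 samples, with changes set in TAZKo normoxia. Every gene had the same spread and all samples were independent. The script recovered 77% of changes of 0.5 and 100% of changes of 1 on the log2 scale, with 5.85% false calls. The simulation lacks the unequal spreads, paired samples and deviating sample of the real data. It therefore checks the script and does not give the rates that hold here. Shared words are the 50-base words of a gene's exons that also occur in other genes.

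The members and gene lists (other mitoribosomal proteins, assembly factors, translation factors, mitochondrial DNA expression, regulators, mitochondrially encoded proteins, and markers of fibroblasts, epithelium, endothelium, leukocytes, neural cells and muscle) were chosen with earlier results of these data known. Named genes were, per contrast, the 5 largest rises and the 5 largest falls among called members, Mrpl15, the 3 highest and 3 lowest per length, the Mrps18 paralogs, Mrps30 and Mrps36, and of each other list the 2 largest calls in each direction. Others are named where a count or the interaction needs them, after their values were seen.

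Same-numbered samples deviated together in the WT hypoxia comparison (correlations of 0.368, 0.204 and 0.152) and in the normoxia genotype comparison (0.354, 0.149 and 0.228), so there the numbers pair the samples. They did not in the hypoxia genotype comparison (0.0551, -0.0237 and 0.121) or the TAZKo hypoxia comparison (0.0277, -0.0245 and 0.0946). Alternatives were DESeq2 1.42.0 as test and as scaling, library size alone, upper quartile scaling, no filter, a replicate block, a lane term, only the samples compared, each sample left out, and subunits by known place. Members with at most 10% shared words, within-lane medians and the other lists without sample 1 of WT normoxia were added after the data were seen.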

Additional observations from a re-analysis of the deposited data

Results flagged for a closer look

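Nsun4, the methyltransferase of the small subunit RNA that also takes part in assembly of the mitochondrial ribosome, passed the interaction test close to the threshold. Of the 25 tested assembly factors 1 was called in the interaction, and of all tested genes 2.43% were. Nsun4 rose by 0.30 on the log2 scale in WT and stood at -0.11 in TAZKo. The difference of these responses was -0.41 (SE 0.097, edgeR quasi-likelihood interaction, adjusted p = 0.0438). Its mean was 21.9 CPM in WT normoxia and 27.0 CPM in WT hypoxia, against 24.2 CPM and 22.4 CPM in TAZKo.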

How the results depend on the processing

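No member's direction was reversed among the named results under the 20 alternatives, but calls near the threshold were lost, as given beside each. Library size alone lowered the median of all tested genes by 0.106 (WT) and 0.094 (TAZKo) in the hypoxia comparisons, and relative to that median the members stood at -0.372 to -0.209 in WT and -0.259 to -0.197 in TAZKo over 21 settings. The hypoxia median of the large subunit in WT became -0.407 with library size alone, -0.363 with upper quartile scaling and -0.368 with no filter. That of the small subunit became -0.391, -0.359 with no filter and -0.205 within lane 5. In TAZKo library size alone gave -0.325 (large) and -0.326 (small). The count of genotype calls in normoxia fell to 8 with only the samples compared. The interaction count became 1 with no filter and 1 with the replicate block (Mrpl12 in each). The cause was not tested. The replicate block changed no other count by over 1.5 times: it gave 19, 19, 56 and 52 calls in the genotype comparisons (normoxia, hypoxia) and the hypoxia comparisons (WT, TAZKo). In the comparisons where the numbers do not pair the samples it added Mrpl34, Mrpl37, Mrpl45 and Mrps6 (genotype in hypoxia) and Mrpl12, Mrpl46, Mrpl51, Mrps12, Mrps21, Mrps28 and Mrps35 (TAZKo hypoxia).

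With each sample left out in turn, the number of called members ran from 12 to 23 (genotype, normoxia), 11 to 21 (genotype, hypoxia), 50 to 58 (hypoxia, WT) and 37 to 57 (hypoxia, TAZKo), and was 0 for the interaction. The medians ran from -0.175 to -0.038 (large) and -0.166 to -0.011 (small) for genotype in normoxia, from -0.418 to -0.244 and -0.378 to -0.213 for hypoxia in WT, and from -0.021 to 0.137 and -0.04 to 0.108 for the interaction. Low counts limit Mrpl23, with as few as 18 counts.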
